A study of Mus musculus with 212 samples.

Results

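Wild-type mouse skin fibroblasts were followed in a pair of 48 h RNA-seq time courses, named AM and PM by the labels, in which clock transcripts peaked about 12 h apart by labelled time. The genes described are those whose daily rhythm was seen in both courses once the PM time labels were moved by 12 h. The courses hold 34 of the 212 libraries of the series, 17 in WT AM and 17 in WT PM. Levels are in FPKM, which scales reads by transcript length and library size. Of 13242 genes whose mean reached 1 FPKM, 60 (0.453%) followed a common 24 h cosine at an adjusted p under 0.05. For 50 of these (0.378%) the rhythm also stood in each course alone, at an unadjusted p under 0.05, with peaks within 4 h of each other, and these 50 are called the genes that repeat. The p-values of those fits chose the 50 and are given to describe them.

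All cells were skin fibroblasts of C57BL/6 background, grown to confluence and given 100 nM dexamethasone, a synthetic glucocorticoid that sets the clocks of cultured cells to a common phase, for 15 min. After washing they stayed in a HEPES-buffered medium without light, and the first harvest came 48 h after the dexamethasone. Each course ran from labelled circadian time (CT) 0 to CT48 in steps of 3 h, with 3 wells and 1 library per time point. Bmal1-/- AM and Bmal1-/- PM cells, with 17 libraries each, had the same treatment and lack the clock gene Bmal1. A further course, WT 37C, had 24 WT libraries from CT0 to CT46 in steps of 2 h after the same dexamethasone pulse. What AM and PM abbreviate is left unexplained in the labels, which also carry no 12 h shift. The labels give no temperature for the AM and PM courses, while the other courses of the series carry theirs. The series' design text gives a single incubation temperature, that of WT 37C, and does not assign it to AM and PM by name. It is not said whether wells were pooled or how many cell preparations were used, so every p-value below measures the spread between libraries of a course, which may be technical.

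In the mammalian clock, a pair of activators (BMAL1, encoded by Arntl, with CLOCK or NPAS2) binds E-boxes and switches on Per, Cry, Nr1d and Dbp genes. PER and CRY proteins then repress the activators, and the REV-ERB receptors encoded by Nr1d1 and Nr1d2 repress Arntl, Npas2 and Nfil3 through sites shared with the ROR receptors. The activators DBP, TEF and HLF and the repressor NFIL3 compete for D-boxes in output genes. Cultured fibroblasts carry such clocks cell by cell, and a glucocorticoid pulse brings the cells into a common phase.

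Estimated depth, read off the FPKM that 1 read is worth, ran from 9.92 to 24.58 M reads in WT AM (median 18.69) and from 13.08 to 25.25 M in WT PM (median 21.83). All 11 fibroblast markers, such as Col1a1, Dcn and Pdgfra, were above 1 FPKM in both courses, with means from 102 to 7200 FPKM in WT AM. Markers of keratinocytes, endothelium, leukocytes, melanocytes, Schwann cells, muscle, fat and cartilage summed to at most 13 FPKM per cell type in WT AM and 12.7 in WT PM, and keratinocyte Krt5 and skeletal muscle Myod1 averaged 0 in WT AM. The cartilage sum was almost all Sox9 (mean 13 FPKM in WT AM) and the melanocyte sum almost all Mlana (8.87), and their part in the rhythms was not tested. In bulk RNA, a change in the number of cells and a change in RNA per cell cannot be told apart.

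Core clock genes ran in antiphase between the courses by label. Of 21 core clock genes listed, 19 passed the level filter and 10 of those were called in the shared fit: Nr1d1, Nr1d2, Dbp, Tef, Per2, Per3, Cry1, Nfil3, Arntl and Npas2. All 10 are among the genes that repeat, and 0 of the 19 were called when the PM labels were left unmoved (1.43% of all genes tested were called in that fit), where peaks near 12 h apart by label cancel. Their order of peaks, in aligned time (AM labels, and PM labels moved by 12 h), ran Nr1d1, Nr1d2, Tef, Dbp, Per3, Per2, Cry1, Nfil3, Arntl and Npas2.

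The promoter stretches of the 5 genes below are shown because their peaks spread over much of the cycle and each holds a clock motif, written in capitals. Each stretch covers 250 bases before to 50 after a RefSeq start (build GRCm38.p6), read 5' to 3' on the gene's strand. Nr1d1 (chr11:98775328-98775627, minus strand) and Cry1 (chr10:85185005-85185304, minus strand) hold the E'-box AACGTG, which is CACGTT on the other strand, and Cry1 also the E-box CACGTG. Per3 (chr4:151044616-151044915, minus strand) holds the D-box TTATGTAA at 2 places. Arntl (chr7:113207261-113207560, plus strand) holds the REV-ERB and ROR element TAGGTCA, and Nfil3 (chr13:52980990-52981289, minus strand) holds it on the other strand, as TGACCTA.
Nr1d1: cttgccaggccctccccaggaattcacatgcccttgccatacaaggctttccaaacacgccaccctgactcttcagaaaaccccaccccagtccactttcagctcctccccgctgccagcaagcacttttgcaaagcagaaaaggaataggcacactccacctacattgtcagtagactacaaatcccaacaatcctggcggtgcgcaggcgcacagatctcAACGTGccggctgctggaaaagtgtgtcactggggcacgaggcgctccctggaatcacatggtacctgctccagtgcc
Per3: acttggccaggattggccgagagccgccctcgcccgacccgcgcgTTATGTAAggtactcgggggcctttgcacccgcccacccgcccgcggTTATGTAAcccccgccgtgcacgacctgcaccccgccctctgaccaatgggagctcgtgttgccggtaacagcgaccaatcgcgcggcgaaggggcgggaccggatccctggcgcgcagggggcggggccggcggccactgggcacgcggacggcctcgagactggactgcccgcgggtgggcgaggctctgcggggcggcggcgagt
Cry1: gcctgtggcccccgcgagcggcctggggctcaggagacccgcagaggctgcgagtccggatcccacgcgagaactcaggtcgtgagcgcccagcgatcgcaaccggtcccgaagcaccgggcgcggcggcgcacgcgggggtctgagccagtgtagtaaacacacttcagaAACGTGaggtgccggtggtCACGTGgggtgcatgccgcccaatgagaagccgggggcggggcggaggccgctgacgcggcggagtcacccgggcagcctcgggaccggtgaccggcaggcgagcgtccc
Nfil3: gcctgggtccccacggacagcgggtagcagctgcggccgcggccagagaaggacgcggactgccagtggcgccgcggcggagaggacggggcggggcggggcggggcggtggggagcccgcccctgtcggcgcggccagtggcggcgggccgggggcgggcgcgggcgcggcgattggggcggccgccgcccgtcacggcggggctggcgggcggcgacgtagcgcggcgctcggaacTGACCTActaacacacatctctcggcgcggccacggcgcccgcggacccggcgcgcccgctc
Arntl: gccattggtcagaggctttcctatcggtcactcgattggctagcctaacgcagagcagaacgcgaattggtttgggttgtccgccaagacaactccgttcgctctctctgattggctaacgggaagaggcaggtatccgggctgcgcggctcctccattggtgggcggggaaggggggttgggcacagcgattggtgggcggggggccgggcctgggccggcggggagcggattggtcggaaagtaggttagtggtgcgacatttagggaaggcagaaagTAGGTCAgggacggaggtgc

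The motifs lie 28 bases before the start in Nr1d1, 205 and 158 before it in Per3, 79 (E'-box) and 60 (E-box) before it in Cry1, 12 before it in Nfil3 and 30 after it in Arntl. Arntl has another RefSeq start, whose stretch (chr7:113207215-113207514) holds none of the motifs searched. Among other core clock genes that repeat, the stretches of Dbp, Nr1d2 and Npas2 also hold none of them, while those of Tef hold the E-box. A gene counted as holding a motif if any of its stretches did. A promoter was matched for 34 of the 50 genes that repeat. The REV-ERB and ROR element (TAGGTCA, both strands) was in 3 of the 34 (8.8%), namely Arntl, Nfil3 and Leo1, against 2.2% of the 9183 tested genes with a promoter and 2.6% of all 32851 promoters in the table. These 3 genes peaked between 9.4 and 13.7 h of aligned time. The E-box CACGTG was in 4 of 34 (11.8%) against 12.1% of tested genes, the E'-box in 2 (5.9% against 6.5%), the D-box (TTATGTAA or TTACGTAA) in 1 (2.9% against 0.8%) and the cAMP element TGACGTCA in 0 of 34 (3.7% of tested genes). The 4 genes with the E-box, Kcne4, Cry1, Hnrnpm and Tef, peaked at 1.5, 5.9, 16.7 and 23.3 h of aligned time. Whether a motif goes with a peak time was not tested. The motif letters describe the window searched only.

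Among the nuclear receptors, Nr1d1 (ENSMUSG00000020889, chromosome 11, 98767932 to 98775333, minus strand, GRCm38), which encodes REV-ERB alpha, had 8.4 FPKM at its lowest (CT9), a median of 17.3 and 23.4 at its highest (CT21) in WT AM. In WT PM it had 11 FPKM at its lowest (CT21), a median of 20.2 and 31.1 at its highest (CT6). The level ranges of the courses overlap, and the high time point of AM was the low time point of PM. Its shared amplitude (log2, mid-level to peak) was 0.63 ± 0.03 (SE), a 2.39-fold difference between trough and peak on the log2(FPKM + 1) scale, with a peak at 20.1 ± 0.2 h (adjusted p = 5.98e-14). By label it peaked at 20.3 h in AM and 7.9 h in PM. Nr1d1 is known to overlap Thra on the opposite strand, and no source used here says whether the counting used strand. Nr1d2, which encodes REV-ERB beta, spanned 5.59 (CT12) to 16.3 FPKM (CT0) in WT AM, median 11.1, and 9.04 (CT0) to 17.9 (CT9) in WT PM, median 13.9, and reached a shared amplitude of 0.38 ± 0.04 at 22.9 h. Rora, a ROR activator, was not called (0.06 ± 0.03).

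The activators of the D-box came next in the order of peaks. Dbp (ENSMUSG00000059824, chromosome 7, 45705088 to 45710203, plus strand) had the largest amplitude of the 50 genes, 0.75 ± 0.04 at 23.6 ± 0.2 h, or 2.81-fold from trough to peak (adjusted p = 5.98e-14). It spanned 8.26 (CT12) to 44 FPKM (CT0) in WT AM, median 16.4, and 8.57 (CT0) to 30.1 (CT12) in WT PM, median 18.4. Its highest AM library and its lowest PM library carry the same label, CT0. Tef spanned 34 (CT42) to 82.1 FPKM (CT3) in WT AM, median 47.9, and 41.7 (CT0) to 91.5 (CT36) in WT PM, median 60.5. Its amplitude was 0.27 ± 0.06 at 23.3 h, with an adjusted p of 0.0391 that did not hold in 9 of 13 other settings of the fit. Hlf, the third member of the family, reached 0.25 ± 0.06 at 2.9 h with an adjusted p of 0.0635 and was not called. Nfil3, the D-box repressor, peaked far from them at 9.4 ± 0.4 h (0.23 ± 0.02, adjusted p = 1.34e-07). Its range was 20.5 (CT45) to 32.1 FPKM (CT12) in WT AM, median 24.5, and 20.3 (CT9) to 32.6 (CT0) in WT PM, median 24.5, so the medians were equal and the extremes fell at opposite times.

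Of the 8 core clock repressors, Per3, Per2 and Cry1 were called, in that order of peaks. Per3 (ENSMUSG00000028957, chromosome 4) spanned 2.63 (CT36) to 11.2 FPKM (CT3) in WT AM, median 5.54, and 5.85 (CT24) to 14.4 (CT12) in WT PM, median 9.22. Its shared amplitude was 0.48 ± 0.05 at 1.6 ± 0.4 h (adjusted p = 2.51e-07). Per2 spanned 1.17 (CT12) to 7.3 FPKM (CT30) in WT AM, median 2.35, and 1.68 (CT0) to 5.17 (CT15) in WT PM, median 2.75. The AM maximum of Per2 is a single library, and its neighbours at CT27 and CT33 had 2.65 and 2.13 FPKM. The shared fit put Per2 at 0.43 ± 0.07 and 3.2 ± 0.6 h (adjusted p = 0.00283). Cry1 (ENSMUSG00000020038, chromosome 10) spanned 4.31 (CT21) to 9.34 FPKM (CT6) in WT AM, median 6.46, and 3.5 (CT30) to 6.25 (CT42) in WT PM, median 4.88, with 0.30 ± 0.03 at 5.9 ± 0.3 h (adjusted p = 2.78e-07). The other repressors were not called, with amplitudes of 0.12 for Per1 (15.5 ± 2.32 FPKM in AM and 16.6 ± 2.11 in PM, SD, n = 17 time points each), 0.09 for Cry2, 0.21 for Ciart, 0.12 for Bhlhe40 and 0.20 for Bhlhe41. All 8 repressors had an unadjusted p under 0.05, against 11.8% of all genes tested.

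The activators peaked last. Arntl (ENSMUSG00000055116, chromosome 7, 113207465 to 113314126, plus strand) spanned 3.62 (CT0) to 9.59 FPKM (CT15) in WT AM, median 7.38, and 5.27 (CT15) to 10.2 (CT0) in WT PM, median 7.35. The lowest AM library and the highest PM library were again both labelled CT0. Its amplitude was 0.33 ± 0.03 at 12.2 ± 0.4 h (adjusted p = 3.74e-08). Npas2, the partner of BMAL1 that can stand in for CLOCK, spanned 0.666 (CT0) to 2.8 FPKM (CT12) in WT AM, median 1.55, and 1.4 (CT15) to 3.81 (CT0) in WT PM, median 2.52, with 0.31 ± 0.06 at 12.7 ± 0.8 h (adjusted p = 0.0189). Clock (0.08 ± 0.03) and Arntl2 (0.18 ± 0.10) were not called. Amplitudes of genes near 1 FPKM, such as Npas2 and Per2, are understated by the added 1 FPKM.

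**Figure D1:**
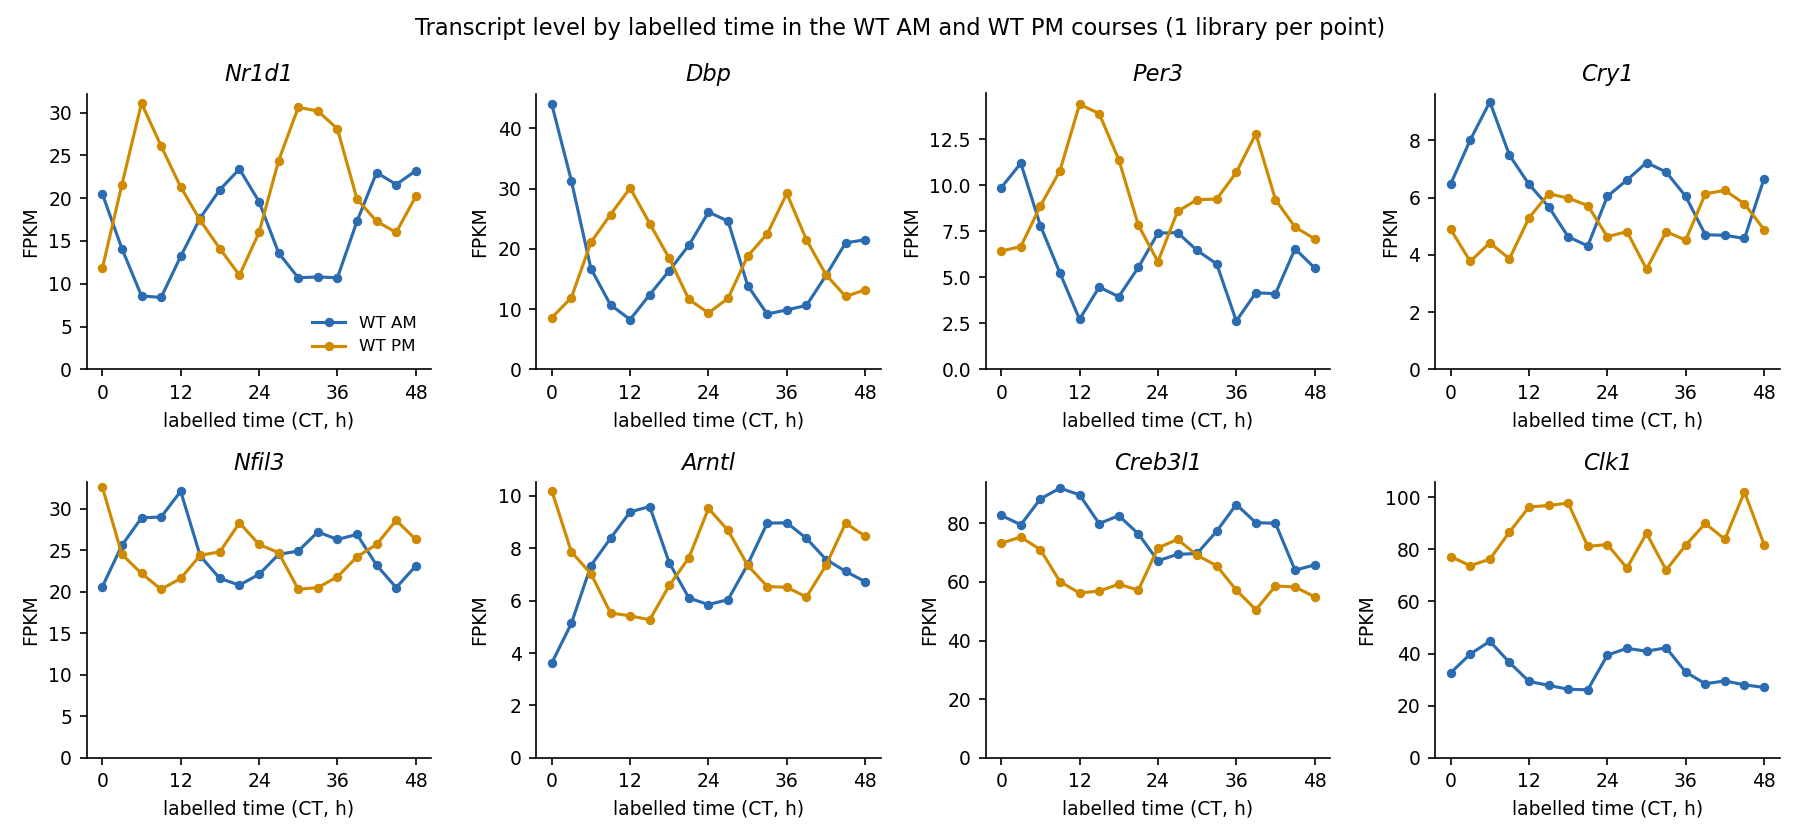
FPKM against labelled time (CT, h) for 8 genes that repeat, 1 point per library, in WT AM (blue) and WT PM (orange). For Nr1d1, Dbp, Arntl and Nfil3 the AM and PM curves mirror each other, with Dbp at 44 FPKM in AM and 8.57 in PM at CT0, while Clk1 cycles around a higher level in PM.

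With the shift, over the 50 genes, the AM peak minus the shifted PM peak ran from -3.2 to 2.9 h with a median of 0.15 h, a spread that the 4 h rule bounds. Among the 10 core clock genes the range was -0.5 to 2.9 h with a median of 0.55 h, and AM peaked later than shifted PM in 9 of 10, Arntl being the exception at -0.5 h. The gap was 0.1 h in Dbp, 0.4 h in Nr1d1 and in Nfil3, 0.5 h in Cry1, 0.6 h in Per2, 0.8 h in Per3, 1.5 h in Npas2, 2.2 h in Nr1d2 and 2.9 h in Tef. Among the other 40 genes the median gap was -0.1 h. Rounded amplitudes were higher in AM in 8 of 10 core clock genes and in 21 of all 50. Genes with equal rounded values in AM and PM, such as Dkk3 and Neat1, count as not higher. With an adjusted p under 0.05 asked of each course alone, 15 of the 50 remained. The p-values of the same courses chose the 50, so that count describes them and is no separate test. Over all genes tested, 0.891% were called in AM and 2.08% in PM, shares for 1 course each.

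**Figure D2:**
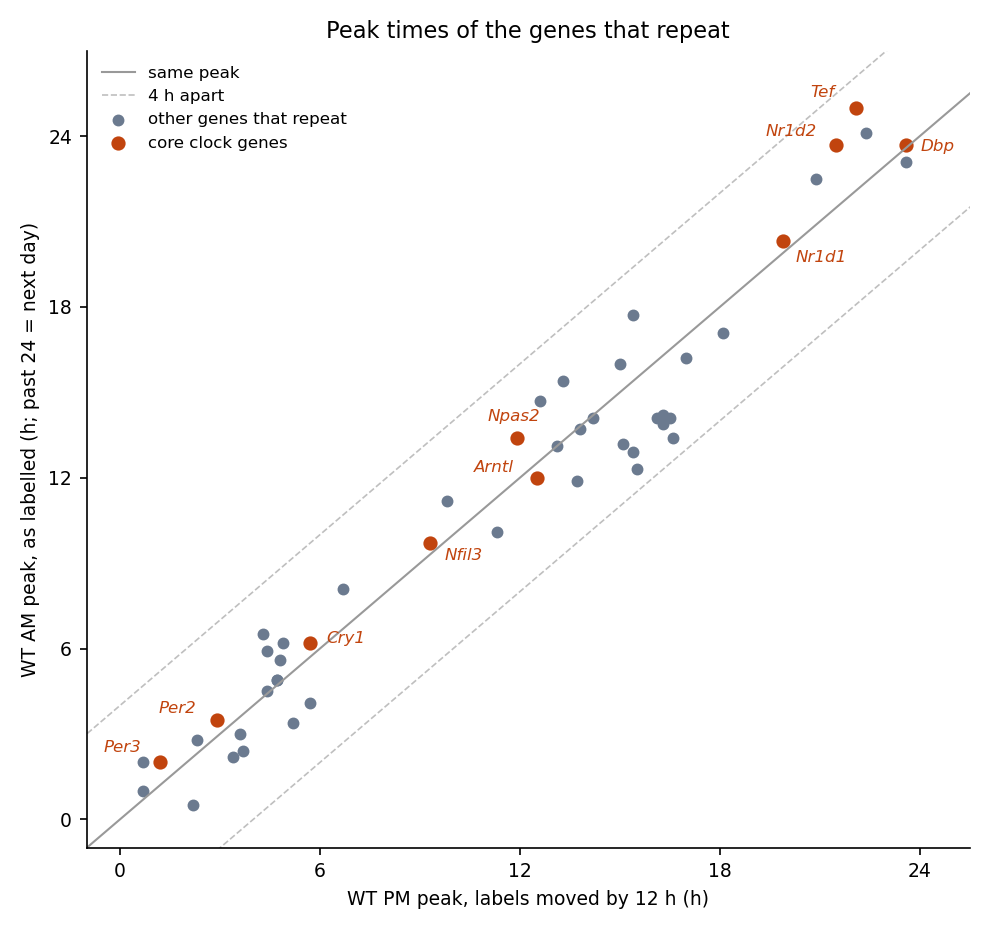
AM peak as labelled (h) against PM peak with labels moved by 12 h (h) for the 50 genes that repeat, with core clock genes in red, the line of equal peaks and dashed lines 4 h to either side. Of the 10 core clock genes 9 lie above the line, by up to 2.9 h (Tef), and Arntl lies below it (-0.5 h), and peaks gather near 0 to 6 h and 12 to 18 h.

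Peak times of the 50 genes were unevenly spread. By 3 h bins from 0 h, 7, 12, 1, 3, 11, 9, 1 and 6 genes peaked, so 19 lay between 0 and 6 h and 20 between 12 and 18 h. The core clock genes had larger swings, with amplitudes of 0.23 to 0.75 (median 0.36), than the other 40 (0.09 to 0.37, median 0.18), and the median over all genes tested was 0.05. Only 12 of the 50 reached 0.3. Proteins are encoded by 46 of the 50. Genes just inside the threshold of the shared fit were Rspry1 (adjusted p 0.0452), Akap12 (0.0486) and Arhgap20 (0.0486), and just outside were Adamts4 (0.0532), Dhrs9 and Zfp36l2 (0.0535 each). The 10 genes that passed the shared fit but not the rule for each course were Fbn2, Tuba1a, Crebzf, Lasp1, Gfm1, Basp1, Rgmb, Plxnd1, Rspry1 and Akap12.

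Between 21 and 3 h, with the REV-ERB, Dbp and Per3 peaks, the named genes were Thbd, Atpaf1, Wee1, Ccn1, Kcne4, Cxcl5, Car11 and Cys1. Thbd, the thrombin receptor thrombomodulin, peaked at 23.3 h (0.11 ± 0.02) and Atpaf1, an assembly factor of ATP synthase, at 23.5 h (0.22 ± 0.04). Wee1, the kinase that holds back entry into mitosis and a known clock output in liver, peaked at 0.9 ± 0.7 h with 0.18 ± 0.03 (adjusted p = 0.0018). It spanned 5.22 (CT12) to 9.29 FPKM (CT0) in WT AM, median 7.72, and 5.07 (CT0) to 9.27 (CT39) in WT PM, median 7.64. The matricellular gene Ccn1 (0.20 ± 0.04 at 1.5 h), the potassium channel subunit gene Kcne4 (0.11 at 1.5 h) and the neutrophil chemokine gene Cxcl5 (0.18 ± 0.04 at 2.5 h) followed. Cxcl5 averaged 159 ± 24.9 FPKM in AM and 35.7 ± 6.97 in PM (SD, n = 17 time points each), so its rhythm repeated around levels that did not overlap between the courses. Cys1, which encodes the cilium protein cystin, swung by 0.36 ± 0.06 at 2.9 h, from 1.51 (CT12) to 11 FPKM (CT48) in WT AM, median 4.74, and from 6.61 (CT0) to 16.5 (CT39) in WT PM, median 11.2. Car11 (0.20 at 2.7 h; chromosome 7, 45699843 to 45704682, plus strand) is the neighbour of Dbp on the same strand.

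Between 3 and 9 h, beside Per2 and Cry1, came Vmp1, Tsc22d3, Neat1, Fam193b, Tagap1, Rsrp1, Clk1, Snhg5 and 3 predicted or clone-named genes. Clk1, a kinase that phosphorylates SR splicing factors, spanned 26.1 (CT21) to 44.7 FPKM (CT6) in WT AM, median 32.6, and 72 (CT33) to 102 (CT45) in WT PM, median 81.8. The ranges do not overlap, yet the shared amplitude was 0.24 ± 0.04 at 5.4 ± 0.5 h (adjusted p = 0.0018). Rsrp1, an arginine and serine rich protein gene, went with it (0.20 ± 0.04 at 5.2 h, adjusted p = 0.00725) at 69.3 to 119 FPKM in WT AM, median 87.7, and 182 to 323 in WT PM, median 242. Neat1, the long non-coding RNA that builds paraspeckles, had 32.1 (CT15) to 56.5 FPKM (CT3) in WT AM, median 39.6, and 114 (CT33) to 234 (CT15) in WT PM, median 135, with 0.27 ± 0.06 at 4.4 h (adjusted p = 0.0344). Fam193b (0.26 ± 0.05 at 4.8 h) averaged 10.7 ± 1.73 FPKM in AM and 33.2 ± 7.56 in PM (SD, n = 17 time points each). Over all 50 genes the mean level in PM was a median of 1.26 times that in AM (range 0.22 to 4.55), and over all genes tested 1.07 times. Of 6 CLK kinase and cyclin L genes, Clk1 alone was called and 3 had an unadjusted p under 0.05. Over all genes tested, 0.453% were called and 11.8% had an unadjusted p under 0.05. Ccnl2 reached 0.38 in AM and 0.04 in PM, and the difference between the courses had an adjusted p of 0.0522. Tsc22d3, the glucocorticoid-induced leucine zipper gene, peaked at 4.4 ± 0.6 h (0.15 ± 0.03, adjusted p = 0.00789). Of 12 tested glucocorticoid response genes it was the 1 called, beside 0.453% of all genes. Vmp1, an autophagy membrane protein gene, peaked at 3.3 h (0.16 ± 0.03), Tagap1 at 5 h (0.14 ± 0.03) and the snoRNA host gene Snhg5 at 7.4 ± 0.6 h (0.24 ± 0.04).

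**Figure D3:**
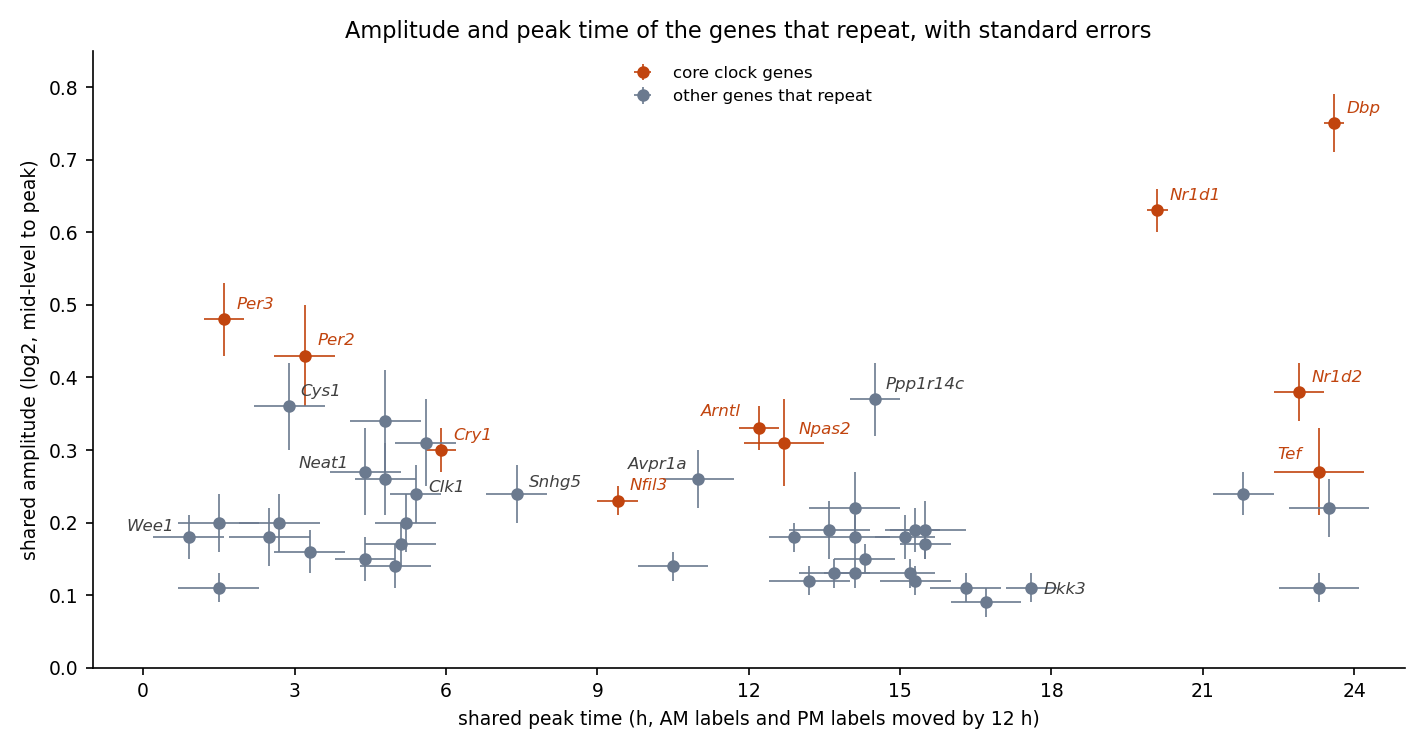
Shared amplitude (log2, mid-level to peak) against shared peak time (h, aligned) for the 50 genes that repeat, with standard errors of both and core clock genes in red. Dbp (0.75) and Nr1d1 (0.63) stand above the rest, and the 20 genes between 12 and 18 h include none above 0.37.

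Between 9 and 18 h, with Nfil3, Arntl and Npas2, came 23 of the 50 genes. Avpr1a, the vasopressin receptor gene, spanned 1.5 (CT0) to 3.91 FPKM (CT39) in WT AM, median 3.04, and 1.96 (CT9) to 5.46 (CT48) in WT PM, median 3.17 (0.26 ± 0.04 at 11 h, adjusted p = 0.00447). Ier5, an immediate early response gene, peaked at 10.5 h (0.14 ± 0.02). Prag1, a pseudokinase gene, peaked at 12.9 ± 0.5 h (0.18 ± 0.02) with an adjusted p of 7.11e-06. Creb3l1, a membrane-bound transcription factor that drives collagen secretion genes in bone, spanned 64 (CT45) to 92 FPKM (CT9) in WT AM, median 79.9, and 50.5 (CT39) to 75.3 (CT3) in WT PM, median 59.2. It reached 0.15 ± 0.02 at 14.3 ± 0.6 h (adjusted p = 0.00116). Of 14 collagen secretion genes it was the 1 called, beside 0.453% of all genes. Ppp1r14c, an inhibitor subunit of protein phosphatase 1, had the largest amplitude outside the core clock, 0.37 ± 0.05 at 14.5 ± 0.5 h (adjusted p = 0.000124), at 0.539 (CT48) to 2.33 FPKM (CT18) in WT AM, median 1.26, and 1.31 (CT12) to 3.54 (CT3) in WT PM, median 1.71. Cdh11, the cadherin of mesenchymal cells, moved over a narrow range of 101 (CT48) to 142 FPKM (CT12) in WT AM, median 124, and 103 (CT15) to 135 (CT3) in WT PM, median 116, and still had an adjusted p of 0.000123 (0.13 ± 0.02 at 15.2 h). Igfbp3, which binds insulin-like growth factors, had 305 to 529 FPKM in WT AM, median 366, and 289 to 499 in WT PM, median 380 (0.19 ± 0.04 at 15.5 h, adjusted p = 0.0351). Dkk3, a secreted dickkopf family gene, peaked at 17.6 ± 0.5 h with 0.11 ± 0.02, and Plat, the tissue plasminogen activator gene, at 16.3 ± 0.7 h with 0.11 ± 0.02. The remaining genes of this stretch, with amplitudes of 0.09 to 0.22, were Acadm, Ckb, Leo1, Clmp, Tril, Arhgap20, Olfm1, Kcmf1, Mtss1, Myo1e and Hnrnpm.

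Beyond the core clock, where 0.453% of all genes were called and 11.8% had an unadjusted p under 0.05, 3 of 8 tested clock outputs of many tissues were called (Wee1, Leo1 and Tsc22d3, with 6 of 8 at an unadjusted p under 0.05 and a median amplitude of 0.14), 1 of 15 contractile and YAP or SRF targets (Ccn1) and 1 of 12 NF-kB and inflammation genes (Cxcl5). By limma, 0 of 12 clock kinases and ubiquitin enzymes, 0 of 2 cold-inducible, 0 of 15 heat shock, 0 of 11 immediate early, 0 of 21 extracellular matrix, 0 of 18 unfolded protein response, 0 of 23 mitosis and S phase, 0 of 20 cholesterol synthesis, 0 of 20 redox, 0 of 13 interferon, 0 of 10 p53, 0 of 15 hypoxia, 0 of 14 ETS and 0 of 22 ribosomal protein genes were called. At an unadjusted p under 0.05 these lists had 1, 0, 3, 3, 4, 2, 0, 1, 4, 1, 2, 4, 1 and 3 members in the same order. At the share over all genes, lists of this size would hold no call, so the counts of 0 say nothing about these pathways. Their median amplitudes lay between 0.03 and 0.08, beside 0.05 over all genes tested. Among the closest to a call were Bgn (0.10 ± 0.02 at 15.8 h, adjusted p = 0.0661), Hsp90ab1 (0.08 ± 0.02 at 16.4 h, 0.068) and Lox (0.12 ± 0.03 at 16.3 h, 0.0804).

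Other genes kept about the same labelled time in both courses. With no shift and otherwise the same rule, 121 genes repeated, and since the rules on peak times exclude each other, no gene can be in both sets. Among the 121, 75 (62%) peaked between 3 and 6 h by label. Myh9, the heavy chain of non-muscle myosin, peaked at 4.0 h in AM (0.12) and 5.7 h in PM (0.27), and its unshifted amplitude was 0.19 at 5.2 h (adjusted p = 0.00653). It had 160 to 216 FPKM in WT AM, median 192, and 181 to 276 in WT PM, median 235. Nsd3 (0.13 at 5.7 h), Pdcd11 (0.13 at 4.5 h), Usp22 (0.17 at 6.1 h) and Kif13b (0.17 at 5.5 h) led this set by p. The median length of the longest transcript was 6112 bp in this set, 3217.5 bp among the 50 genes that repeat with the shift, and 3065 bp over all genes tested. Whether transcript length has a part in the unshifted pattern was not tested.

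The difference between the courses was tested directly, as AM minus shifted PM, and 255 of 13242 genes (1.93%) were called. Among them were Myh9, Nsd3, Pdcd11 and Usp22 (adjusted p = 0.00263 each) and Kif13b (0.0029), whose peaks keep their label. Of the 50 genes that repeat, 2 differed. Nr1d2 swung by 0.50 at 23.7 h in AM and by 0.29 at 21.5 h of aligned time in PM (9.5 h by label; adjusted p = 0.0385). Myo1e, an unconventional myosin gene, swung by 0.13 at 13.4 h in AM and by 0.24 at 16.6 h in PM (4.6 h by label; adjusted p = 0.0205). For the other 48 a difference was not detectable here, which does not show that their rhythms were equal. The count of 255 depended on single libraries. It became 1036 without WT PM at CT48 and 394 without WT PM at CT42, and 145 to 167 without WT AM at CT15 (146) or WT PM at CT6 (167), CT15 (158), CT18 (145), CT21 (165), CT27 (148) or CT30 (151).

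Leaving out WT PM at CT48 alone also raised the shared calls to 136 and the genes that repeat to 99, of which 48 are among the 50. Without any other single library of the 34, the genes that repeat numbered between 39 and 58, with 37 to 48 of the 50 retained. WT PM at CT48 had an estimated 18.02 M reads and a mitochondrial share of 2.56%, both within the range of its course.

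The amplitude was also fitted for each day, the second starting at CT24. It was lower on the second day in 36 of the 50 genes and in 10 of 10 core clock genes, with a core median of 0.30 on the second day and 0.44 on the first. Dbp had 0.68 ± 0.04 on the second day and 0.82 ± 0.04 on the first. Per3 had 0.36 ± 0.06 on the second day and 0.58 ± 0.07 on the first, and Arntl 0.25 ± 0.03 on the second and 0.40 ± 0.03 on the first. No gene passed the test of the difference after adjustment (limma, 0 of 13242, with 1283 or 9.69% at an unadjusted p under 0.05). The adjusted p was 0.37 for Arntl, 0.489 for Dbp and 0.508 for Per3.

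Bmal1-/- cells were compared with WT over the same AM and PM times, and the difference in the shared 24 h cosine was called for 36 of 13307 genes (0.271%). The Arntl transcript itself averaged 6.56 ± 0.359 FPKM in Bmal1-/- AM and 7.29 ± 1.61 in WT AM, and 7.32 ± 0.378 in Bmal1-/- PM and 7.36 ± 1.45 in WT PM (SD, n = 17 time points each). Which part of Arntl was deleted is not stated, so this level checks no label. Of the 50 genes that repeat, 48 had a lower amplitude of this cosine in Bmal1-/- cells, and 19 passed the test, 8 of them core clock genes. Since the WT libraries of this contrast also chose the 50, that count is a description. The fit moved the PM labels of Bmal1-/- by 12 h as well, so a swing at the same labelled time in both Bmal1-/- courses cancels. Kcmf1, for example, had 0.16 at 15 h in Bmal1-/- AM and 0.13 at 14.8 h by label in Bmal1-/- PM. Its amplitude in the common Bmal1-/- cosine was 0.01. How many of the 50 are affected was not counted. Median amplitude was 0.06 in Bmal1-/- and 0.20 in WT over the 50, and 0.04 (range 0.01 to 0.10) in Bmal1-/- and 0.36 (0.23 to 0.75) in WT over the 10 core clock genes. The median over all genes was 0.05 in either genotype.

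The core clock genes that passed had small swings in Bmal1-/- cells, around levels that were lower, higher or alike. Dbp had an amplitude of 0.08 ± 0.04 in Bmal1-/- and 0.75 ± 0.03 in WT (adjusted p of the difference 2.78e-17), and its level ran from 9.28 to 12.9 FPKM in Bmal1-/- AM, median 10.5, against 8.26 to 44 in WT AM, median 16.4. Nr1d1 had 0.09 ± 0.03 in Bmal1-/- and 0.63 ± 0.03 in WT (7.14e-15), at 4.19 to 6.97 FPKM in Bmal1-/- AM, median 5.46, and 8.4 to 23.4 in WT AM, median 17.3. The Bmal1-/- range of Dbp lies inside the WT range, and that of Nr1d1 lies wholly below it. Cry1 went the other way in level, with 21.8 to 26 FPKM in Bmal1-/- AM, median 24.6, against 4.31 to 9.34 in WT AM, median 6.46, and had an amplitude of 0.03 ± 0.02 in Bmal1-/- and 0.30 in WT (1.01e-09). Arntl had an amplitude of 0.02 ± 0.03 in Bmal1-/- and 0.33 in WT (3.14e-09). Nfil3 had 0.03 ± 0.02 in Bmal1-/- and 0.23 in WT (1.24e-07), at a mean of 24.4 FPKM in Bmal1-/- AM and 24.8 in WT AM. Per3 had 0.04 in Bmal1-/- and 0.48 in WT (7.15e-06), at a mean of 1.29 FPKM in Bmal1-/- AM and 5.93 in WT AM. Nr1d2 had 0.01 in Bmal1-/- and 0.38 in WT (3.15e-05), at 0.804 FPKM in Bmal1-/- AM and 11.4 in WT AM, a level at which the added 1 FPKM shrinks any swing. Per2 differed with an adjusted p of 0.0487, and Npas2 (0.181) and Tef (0.209) did not pass.

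Outside the core clock, Ppp1r14c (0.05 in Bmal1-/- and 0.37 in WT, adjusted p = 6.57e-05), Avpr1a, Prag1, Tsc22d3, Cys1, Ckb, Creb3l1, Ier5, Tril and Wee1 also passed. Ppp1r14c averaged 0.496 FPKM in Bmal1-/- AM and 0.645 in Bmal1-/- PM, and Cys1 0.385 in Bmal1-/- AM and 0.632 in Bmal1-/- PM. As for Nr1d2, the added 1 FPKM shrinks any swing at these levels, so a lost rhythm and a low level cannot be told apart for them. The fit put Tril at 0.16 ± 0.05 and 5.9 h in Bmal1-/- and at 0.18 ± 0.04 and 14.1 h in WT. The Bmal1-/- swing of Tril was not called in the shared fit of Bmal1-/- (adjusted p = 0.196), so its peak time there is uncertain. That swing was 0.26 in Bmal1-/- AM and 0.07 in Bmal1-/- PM. Mean levels of Tril were low, 1.49 FPKM in Bmal1-/- AM and 1.67 in Bmal1-/- PM. Neat1 and Rsrp1 are the 2 genes whose amplitude was not lower in Bmal1-/- in the fit with PM labels moved by 12 h. Neat1 had an amplitude of 0.28 ± 0.06 at 5.6 h in Bmal1-/- and 0.27 at 4.4 h in WT, and Rsrp1 0.20 ± 0.04 at 5.7 h in Bmal1-/- and 0.20 at 5.2 h in WT. These were the 2 of the 50 called in the shared fit of Bmal1-/- (adjusted p = 0.0425 and 0.0455, where 0.188% of all genes were called), and their genotype differences had adjusted p of 0.851 and 0.976. In Bmal1-/- the swing was unequal between courses, with 0.44 in AM and 0.17 in PM for Neat1, and 0.32 in AM and 0.08 in PM for Rsrp1. Clk1 likewise had 0.37 in Bmal1-/- AM (unadjusted p = 0.000657) and 0.03 in Bmal1-/- PM (0.74). That difference between the Bmal1-/- courses was not tested.

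**Figure D4:**
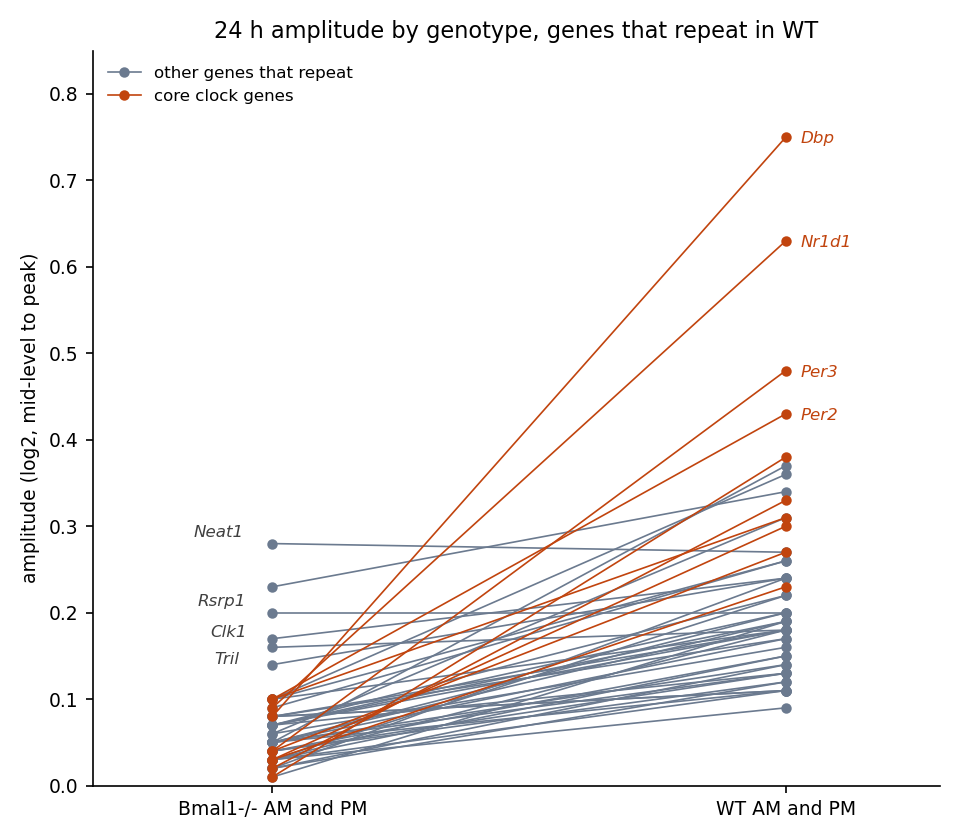
Amplitude of the 24 h cosine (log2, mid-level to peak) in Bmal1-/- and in WT, AM and PM fitted together with PM labels moved by 12 h, 1 line per gene that repeats in WT, with core clock genes in red. Core clock genes drop to 0.01 to 0.10 in Bmal1-/-, against 0.23 to 0.75 in WT, while Neat1 has 0.28 in Bmal1-/- and 0.27 in WT. A Bmal1-/- swing at the same labelled time in AM and PM cancels in this fit.

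The WT 37C course had no part in choosing the genes. All 50 were measured there, and 31 (62%) were called, against 472 of 12681 genes (3.72%) over all genes tested. At an unadjusted p under 0.05 it was 47 of 50 (94%) against 23.1%. All 10 core clock genes and 21 of the other 40 were called. In aligned time (AM labels, and PM labels moved by 12 h), the shared peaks of the 31 were within 4 h of those in WT 37C. They were earlier than in WT 37C for 29 of 31, with a median gap of -2.4 h (shared AM and PM peak minus WT 37C, range -3.8 to 0.7). For the core clock genes the median gap was -2.75 h and the range -3.8 to -1.4 h. Nr1d1 peaked at 20.1 h in the shared AM and PM fit and at 23.1 h in WT 37C, and Dbp at 23.6 h in the shared fit and 2.1 h in WT 37C. Cry1 peaked at 5.9 h in the shared fit and 9.6 h in WT 37C, and Arntl at 12.2 h in the shared fit and 14.6 h in WT 37C. The offset itself was not tested. Median amplitude over the 50 was 0.20 in the shared AM and PM fit and 0.17 in WT 37C. Genes that repeat but were far from a call in WT 37C included Atpaf1 (adjusted p = 0.59), Kcmf1 (0.238) and Acadm (0.207), with peaks of 18.3, 1.2 and 4.2 h there.

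**Figure D5:**
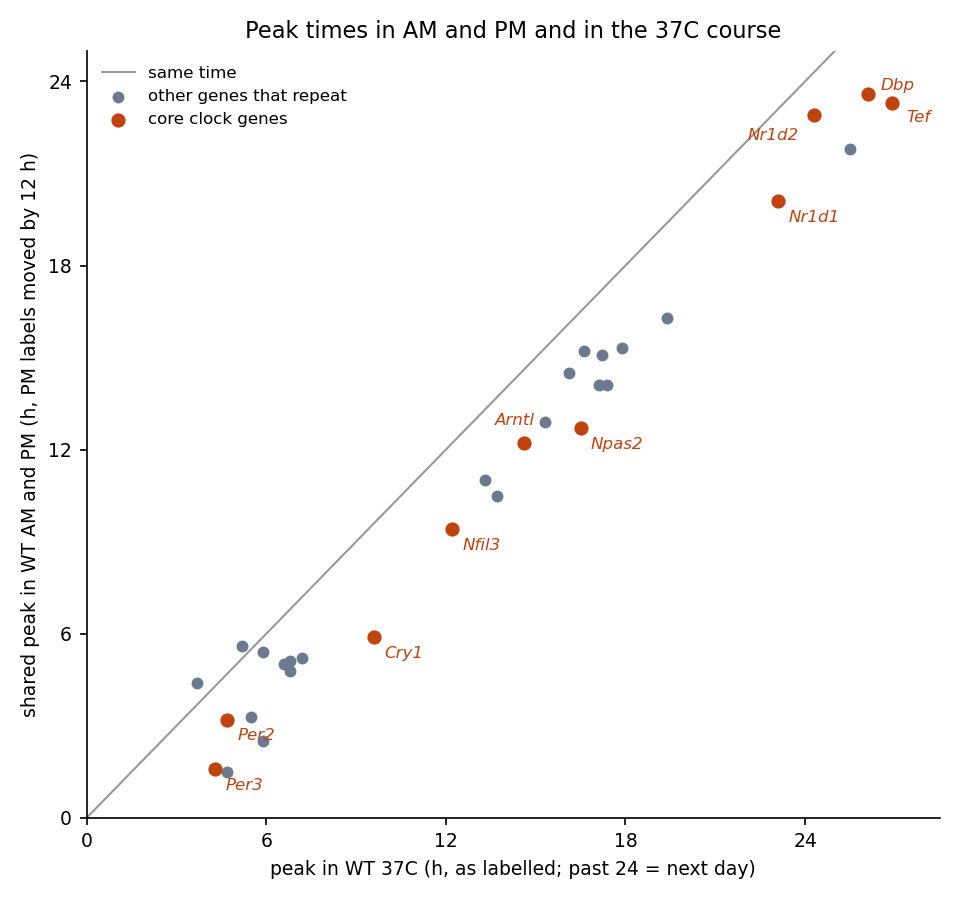
Shared peak time in WT AM and PM (h) against peak time in the WT 37C course (h) for the 31 of 50 genes called in both, with core clock genes in red and the line of equal time, where the AM and PM peak is in AM labels with PM labels moved by 12 h. On that scale core clock genes peak 1.4 to 3.8 h earlier in AM and PM than in WT 37C.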

How the data were processed

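Poly(A) RNA was read from a single end in 101-base stranded libraries, per the labels' protocols. The authors deposited FPKM values per gene and library in a single file, per the file headers. The submitters' processing notes name TopHat, TopHat2 2.1.0, Cuffdiff and GRCm38, and no source used here names the annotation or scaling. Of 47631 gene IDs, 47217 matched GENCODE M21. Depth is estimated, since the table holds no counts: for 1357 single-transcript genes, 94.1% of low values were whole reads to within 0.15, and no counting interval was computed.

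Values were taken as log2(FPKM + 1), and genes whose mean reached 1 FPKM were tested with limma 3.58.1 (R 4.3.3; lmFit, eBayes with trend, moderated F tests of cosine and sine, Benjamini-Hochberg over all genes tested). Each course had an intercept and linear time. Contrasts were AM minus shifted PM, second minus first day, and Bmal1-/- minus WT. The fit was also run on simulated data with residuals independent between time points, and its outcome there is not used here. Named are core clock genes, the 20 smallest p in the shared fit, the largest amplitudes per 3 h bin, up to 3 members per list and 5 genes per difference; the other genes that repeat were named after their values were seen. Predicted genes are counted but not named, and some results are not reported here. The genes, lists, 12 h shift and tests were chosen with earlier results of these data known. Ctgf and Cyr61 were matched as Ccn2 and Ccn1. Alternatives covered pseudocount, filter, scaling, trend, harmonics, period, depth, serial correlation, shift and left-out libraries.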

Additional observations from a re-analysis of the deposited data

Results flagged for a closer look

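Rhythms that differed between AM and shifted PM are listed because the difference itself passed the limma test, which called 255 genes. Among the genes that repeat these were Nr1d2 (adjusted p = 0.0385) and Myo1e (0.0205), and the smallest p over all genes belonged to Myh9, Nsd3, Pdcd11 and Usp22 (adjusted p = 0.00263 each) and Kif13b (0.0029).

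Rhythms that differed between Bmal1-/- and WT were called for 36 genes, and 19 of them repeat in WT AM and PM. In the core clock the adjusted p was 2.78e-17 for Dbp, 7.14e-15 for Nr1d1, 1.01e-09 for Cry1, 3.14e-09 for Arntl, 1.24e-07 for Nfil3, 7.15e-06 for Per3, 3.15e-05 for Nr1d2 and 0.0487 for Per2. Among others it was 6.57e-05 for Ppp1r14c, 0.0015 for Avpr1a, 0.00335 for Prag1, 0.00399 for Tsc22d3, 0.00585 for Cys1, 0.0102 for Ckb, 0.0187 for Creb3l1, 0.0444 for Ier5, 0.0479 for Tril and 0.0487 for Wee1. With PM labels moved by 12 h, the amplitude was lower in Bmal1-/- in each of these 19 genes, chosen for their WT rhythm. For Tril it was nearly the same, 0.16 ± 0.05 in Bmal1-/- and 0.18 ± 0.04 in WT. Its fitted peaks lay at 5.9 h in Bmal1-/- and 14.1 h in WT. The Bmal1-/- swing of Tril was not called in the shared fit of Bmal1-/- (adjusted p = 0.196), so its peak time there is uncertain.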

How the results depend on the processing

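Counts moved by over 1.5 times in some settings, and the cause was not tested. Differences between AM and PM in this section are all AM minus shifted PM, so a rhythm that keeps its label in both courses can pass. With no filter, 36 genes had a shared rhythm, 147 differed between AM and shifted PM and 19 between genotypes. With no time term the shared calls were 38, the genes that repeat 33 and the genotype differences 15. At a period of 22 h these were 30, 29 and 18, with 12 differing between AM and PM. Without the CT48 libraries, 101 were shared, 78 repeated and 1047 differed between AM and PM. A depth covariate gave 407 differences between AM and PM. A correction for correlation between neighbouring time points, with a single median value for all genes, gave 821. By gene, such correlations in the shared fit ran from -0.64 to 0.54, so it did not remove them gene by gene. Differences between days, 0 in the full fit, became 5 with an added 12 h wave, 3 at 26 h and 36 with the correction for neighbouring time points. Moving PM by 0, 6 or 18 h gave 189, 22 or 31 shared genes, 121, 15 or 20 that repeat and 0, 2 or 5 core clock genes. Moving it by 9 or 15 h gave 68 or 46 shared genes, 51 or 41 that repeat and 8 or 10 core clock genes. These counts do not single out 12 h among shifts of 9 to 15 h. Asking an adjusted p under 0.05 in each course left 15.

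Leaving out each library in turn gave 45 to 136 shared genes, 39 to 99 that repeat, 9 to 11 core clock genes, 145 to 1036 AM and PM differences, 0 to 1 day differences, 19 to 53 genotype differences (15 to 20 of the 50) and 26 to 34 of the 50 called in WT 37C. The genotype count fell below 24 without WT AM at CT0 (23), CT6 (21), CT18 (21), CT21 (22), CT39 (23) or CT48 (20), WT PM at CT6 (22), CT15 (22), CT18 (23) or CT30 (19), Bmal1-/- AM at CT6 (22), CT27 (21) or CT42 (19), or Bmal1-/- PM at CT15 (21) or CT30 (22). Of 33 named genes called, 0 changed direction, and Dbp, Nr1d1, Nr1d2, Per3, Cry1, Nfil3 and Arntl kept their call in all 13 settings of the fit; Tef lost it in 9, Igfbp3 and Ccn1 in 6, Car11 and Neat1 in 5, and Npas2 and Cxcl5 in 4. The genotype and WT 37C refits were chosen after seeing the data. Matching libraries by time label, with a replicate block per time point also added after seeing the data, gave 51 genotype differences (28 of the 36 kept), 63 shared genes (43 of the 60 kept) and 8 core clock genes; the AM minus shifted PM difference was not run with it. Residuals of matched libraries correlated across genes at -0.08 to 0.14 over 34 Bmal1-/- and WT pairs, above 0.1 in 4 of them. Over 17 AM and PM pairs it was -0.07 to 0.13, again above 0.1 in 4. The matched library was the best correlated in 4 of the 34 pairs and in 4 of the 17. Whether matched libraries share a preparation or a run is not stated, and these correlations cannot settle it.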
